A study of Mus musculus with 4 samples.

Results

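The proteasome is the large protease that degrades ubiquitin-tagged proteins, and its subunits and assembly factors are encoded by the genes whose symbols begin with Psma to Psmg. These members were defined by symbol, as the protein-coding genes of GENCODE mouse release M21 (build GRCm38) that start with Psma, Psmb, Psmc, Psmd, Psme, Psmf or Psmg. The choice was made with earlier results of these data known. The rule gave 50 genes of 21652 protein-coding genes, and 46 of the 50 had a value in all 4 libraries and entered the tests. Liver RNA came from male mice on a C57BL/6 background, with 2 libraries of knockout animals, in which both copies of hemojuvelin (Hjv) are disrupted, and 2 of wild type animals. From the age of 5 weeks every animal ate a soy-free AIN-93G diet holding iron at 2.5 mg per kg, and livers were taken 50 days later, at 12 weeks by the labels. No iron-sufficient group enters the comparison, the disruption is constitutive and not limited to a cell type, and the labels do not say that the 2 libraries of a genotype came from separate animals, so p-values measure the spread between these libraries. In whole liver, fewer cells of a type and less RNA per cell cannot be told apart.

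The proteasome is built from a barrel-shaped core, in which rings of alpha subunits gate the chamber and rings of beta subunits hold the proteolytic sites, and from a regulatory particle whose base unfolds substrates with ATPases and whose lid removes ubiquitin. Cells exposed to interferon replace the catalytic beta subunits by immune forms, which change which peptides are released for antigen presentation. When proteasome capacity is short, the transcription factor Nfe2l1 raises the subunit genes together through antioxidant response elements in their promoters.

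The plainest result was a modest shift of the members to lower values in the knockout libraries, without any member past the adjusted threshold. Levels are in FPKM, a density of fragments per kilobase that accounts for library depth, scaled between libraries, and a log2 difference is knockout minus wild type on the log2(scaled FPKM + 1) scale. The members had a median log2 difference of -0.21, against 0.016 over the 8008 genes tested. For 21 of the 46 members, or 45.7%, both knockout libraries lay below both wild type libraries, where 23.7% of all genes tested did so. Members with both knockout libraries above the wild type pair numbered 4, or 8.70%, against 22.4% of all genes. Against more highly expressed genes the contrast was smaller. With the filter raised to 5 FPKM, 21 of 45 members lay below, where 31.0% of all genes did. In that setting 3 members lay above, where 18.3% of all genes did, and the medians were -0.22 for members and -0.061 for all genes. By limma with Benjamini-Hochberg adjustment over all genes, 0 members and 0 of the 8008 genes (0%) passed an adjusted p of 0.05, also when the mean-variance trend was left out. At an unadjusted p under 0.05, 4 members were lower, where 5.29% of all genes were, and 1 member was higher, where 5.78% of all genes were. For any single value, an exact permutation test of 2 against 2 libraries goes no lower than a p of 0.333.

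Libraries of the same genotype also differed over the members. The median log2 difference over the members was -0.34 for knockout replicate 1 and -0.12 for knockout replicate 2, each against the mean of the wild type pair. Knockout replicate 2 exceeded replicate 1 by a median of 0.20, and wild type replicate 2 exceeded replicate 1 by 0.098. Without knockout replicate 2, 33 members lay below wild type, where 38.5% of all genes did. Without knockout replicate 1, 13 members lay above, where 39.8% of all genes did. Leaving out wild type replicate 2 put 10 above, where 33.5% of all genes lay above. With a gene's loci summed in place of averaged, 10 members lay below, where 18.3% of all genes did, and 5 lay above, where 17.5% did. On the deposited, unscaled values the median over all genes moved to 0.19 and that of the members to -0.0030. On that scale 8 members lay below, where 8.66% of all genes did, and 11 lay above, where 36.6% of all genes did, so the members were low relative to other genes rather than in the deposited numbers themselves.

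**Figure D1:**
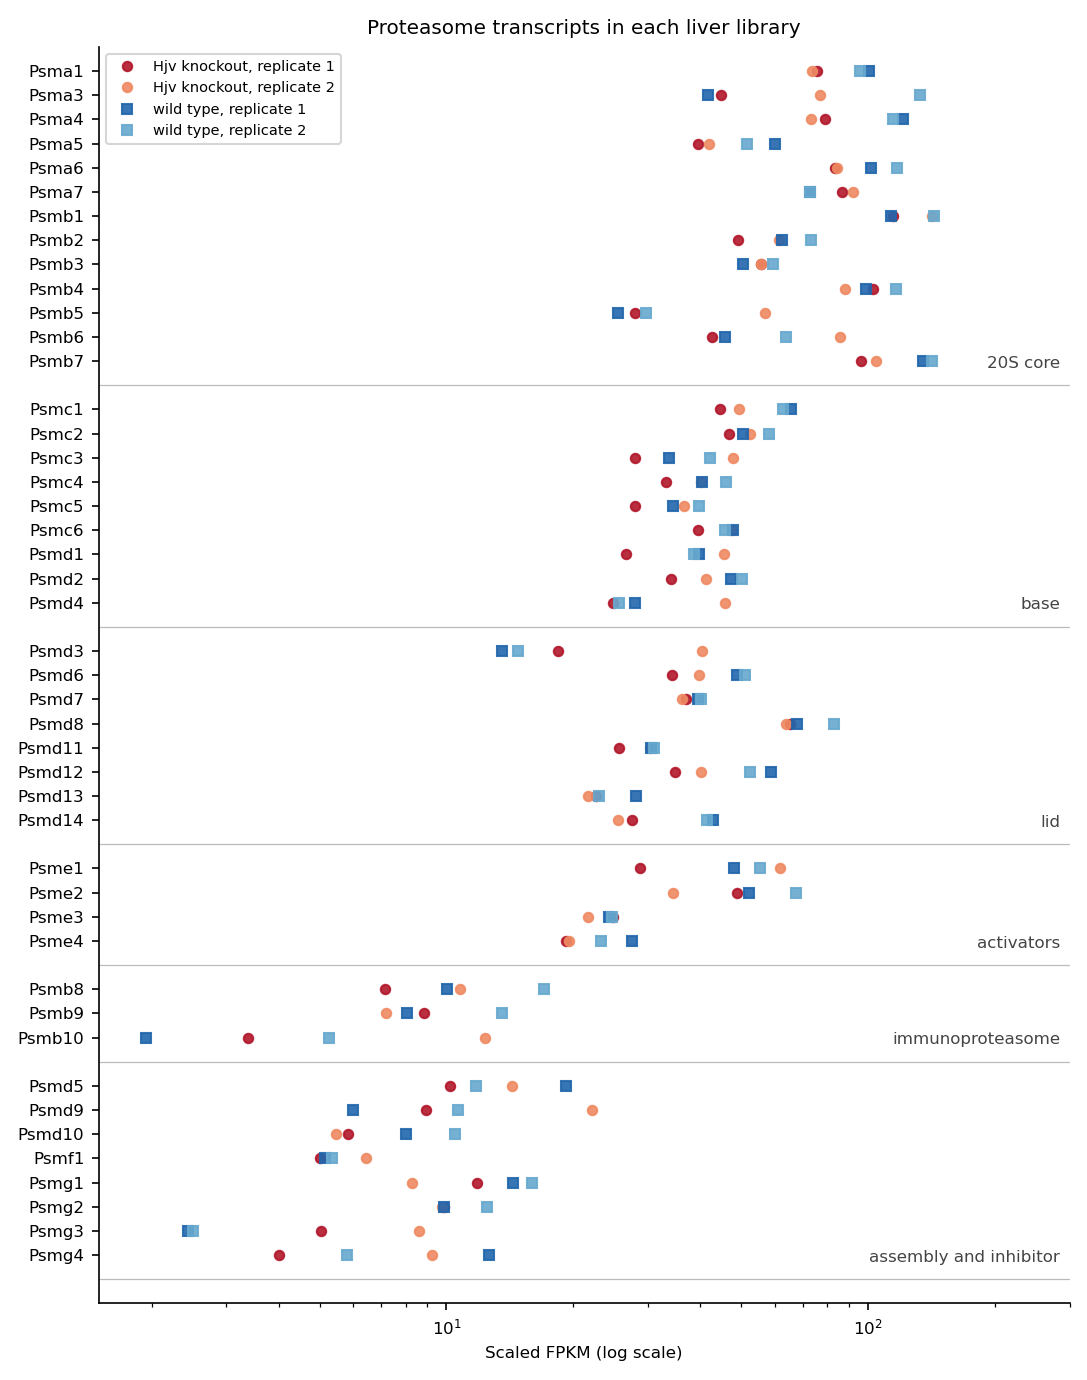
Scaled FPKM (log axis) of the 45 tested members of the 6 classes in each of the 4 libraries, with circles for Hjv knockout and squares for wild type. Core subunits reach the highest levels, and immune subunits and assembly factors the lowest.

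The libraries held 55.0 and 132 M fragments in knockout replicates 1 and 2, against 87.0 and 51.3 M in wild type replicates 1 and 2, if a step between the deposited confidence bounds is 1 fragment. Each file lists loci assembled in that library alone, 56237 and 30190 in knockout against 41541 and 26238 in wild type. For the longest locus of each tested member, the bounds lay 2.28% to 63.6% above and below their midpoint, with a median of 5.08%, which covers counting error only. The targeted gene, listed as Hfe2, was without a locus in knockout replicate 1 and stood at 0.237 scaled FPKM in replicate 2, against 9.24 and 29.7 in wild type. Hamp, the hepcidin gene that hemojuvelin signalling switches on, was without a locus in knockout replicate 1 and stood at 1.62 in replicate 2, against 22.0 and 100 in wild type. Of 6 hepatocyte markers tested, 1 lay above, 2 below and 3 overlapped, where 22.4% of all genes lay above and 23.7% below. The median log2 difference of the 6 markers was -0.47, and Alb had no locus assigned in any library. Tat, a tyrosine-degrading enzyme of hepatocytes, had 245 and 239 in knockout, against 456 and 408 in wild type. Apoa1 was the marker that lay above, at 3404 and 5029 in knockout, against 2647 and 1602 in wild type.

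Promoters of the members were read from RefSeq (GRCm38.p6) as windows from 250 bases before to 50 bases after a start, which 42 of the 50 members had. Windows were searched on both strands for the core of the antioxidant response element, TGACNNNGC, which Nfe2l1 and Nfe2l2 bind. It was found in 6 members, in 13.3% of their windows, against 12.4% of all 32851 windows. Of these 6, 5 are shown here to set the letters beside the values below, 5′ to 3′ on the strand of the gene up to the start site at most, with the match in capitals. In Psmc6 and Psmd12 the match is on the opposite strand, so the capitals read as its reverse complement.
Psmd9, chr5:123228134-123228189, plus strand: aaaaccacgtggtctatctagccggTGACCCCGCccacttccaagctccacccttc
Psmb5, chr14:54618009-54618067, minus strand: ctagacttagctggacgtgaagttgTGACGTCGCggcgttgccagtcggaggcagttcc
Psmb6, chr11:70525323-70525356, plus strand: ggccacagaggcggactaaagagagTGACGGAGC
Psmc6, chr14:45329574-45329630, plus strand: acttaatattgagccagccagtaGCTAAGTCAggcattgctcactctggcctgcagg
Psmd12, chr11:107479278-107479314, plus strand: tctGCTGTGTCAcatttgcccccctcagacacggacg
The members with this match lay in both directions, at log2 differences of 0.75 for Psmd9, 0.52 for Psmb5, 0.16 for Psmb6, -0.11 for Psmc6, -0.37 for Psme4 and -0.56 for Psmd12. A CCAAT box, searched as CCAAT, was in 33.3% of member windows and 37.4% of all windows. The core of the interferon-stimulated response element, GAAA followed after 2 bases of any kind by another GAAA, was in 11.1% of member windows (Psmb3, Psmd4, Psmd9, Psme1 and Psmg4) and 3.44% of all windows. A match describes letters in the window and says nothing of binding in these livers.

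The core particle had a median log2 difference of -0.30 over its 13 tested constitutive subunits. Of these, 6 (46.2%) lay below wild type in both knockout libraries, where 23.7% of all genes tested did. Only 1 (7.69%) lay above, where 22.4% of all genes did, and 6 overlapped. The alpha ring lay lower, with a median of -0.38 over 6 tested subunits, while the 7 constitutive beta subunits had a median of -0.0019. The rings also differ in median GC content, 45.8% for alpha and 52.2% for beta. With a correction for GC content, the lowest and highest core genes, Psma4 and Psmb5, went from -0.62 and 0.52 to -0.52 and 0.21. The part of GC content in the gap between the rings was not tested. The median core level was 75.5 and 76.9 scaled FPKM in knockout, against 72.9 and 95.5 in wild type, and the core median changed to -0.056 without wild type replicate 2 and to -0.091 with the midpoint of the confidence bounds in place of the FPKM.

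Psma4, an alpha ring subunit (chromosome 9, 54950790 to 54958030), had 79.1 and 73.1 scaled FPKM in the knockout libraries, against 121 and 115 in wild type. Both knockout libraries were low and the groups did not overlap. The means were 76.1 ± 4.26 in knockout and 118 ± 4.27 in wild type (SD, n = 2 each), a log2 difference of -0.62 with a standard error of 0.18 and a limma adjusted p of 0.415. Psma1, another alpha ring subunit, had 75.5 and 73.7 in knockout, against 101 and 95.5 in wild type. Psma5 had 39.5 and 41.9 in knockout, against 59.95 and 51.7 in wild type. Psma6 had 83.3 and 84.3 in knockout, against 102 and 117 in wild type. Psma1, Psma5 and Psma6 each had knockout libraries close together below a wider wild type pair, with log2 differences of -0.39, -0.44 and -0.38 in the order given. With the midpoint of the confidence bounds in place of the FPKM, Psma6 overlapped. It then had 69.5 and 84.8 in knockout, against 84.7 and 96.3 in wild type.

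Psma7 went the other way within the same ring, at 86.4 and 91.9 in knockout, against 72.9 and 72.6 in wild type. The groups did not overlap, and its log2 difference was 0.29 with a standard error of 0.18 and a limma adjusted p of 0.562. Psma3 had 44.8 and 76.9 in knockout, against 41.7 and 133 in wild type, so that its libraries overlapped widely. Its locus covered 2730 exonic bases in wild type replicate 1, against 872 in the other wild type library, and a separate locus of 1253 bases at 3.09 scaled FPKM lowered the mean in knockout replicate 1. Psma2 could not be tested because its loci spanned under 50% of a coding transcript in knockout replicate 2 and wild type replicate 1. Its highest locus had 78.1 and 70.1 in knockout, against 106 and 107 in wild type, which also lay apart with knockout below. Psma8, the alpha subunit of the testis proteasome, was near the lower limit at 6.16 and 1.37 in knockout, against 1.13 and 0.749 in wild type.

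Among the constitutive beta subunits, Psmb7, the trypsin-like catalytic subunit, had 95.9 and 105 in knockout, against 135 and 142 in wild type. It lay apart between the genotypes at a log2 difference of -0.46 and a limma adjusted p of 0.459. Psmb2, a structural beta subunit, had 49.1 and 61.3 in knockout, against 62.4 and 73.3 in wild type, and lay apart by a narrow margin. With the midpoint of the confidence bounds Psmb2 overlapped, at 37.7 and 61.7 in knockout, against 47.8 and 56.1 in wild type. The chymotrypsin-like subunit Psmb5 had 28.0 and 56.9 in knockout, against 25.5 and 29.7 in wild type. Knockout replicate 2 alone was high, and replicate 1 lay between the wild type libraries, so the log2 difference of 0.52 became 0.026 without knockout replicate 2. Psmb6, the caspase-like subunit, followed with 42.6 and 85.6 in knockout, against 45.8 and 64.0 in wild type. Psmb1, Psmb3 and Psmb4, which carry no active site, overlapped between the genotypes at log2 differences of -0.0019, 0.024 and -0.17.

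Levels within the core were unequal in every library, although each core particle holds its subunits in equal numbers. FPKM are per length, so genes can be set side by side. The highest core gene exceeded the lowest by a factor of 4.09 and 3.38 in knockout, against 5.28 and 4.83 in wild type. Psmb5 was the lowest except in knockout replicate 2, where Psma5 was. The 9 base subunits lay closer together, within a factor of 1.88 and 1.43 in knockout and of 2.34 and 2.45 in wild type, and the 8 lid subunits within 3.55 and 2.94 in knockout and 4.99 and 5.63 in wild type.

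**Figure D2:**
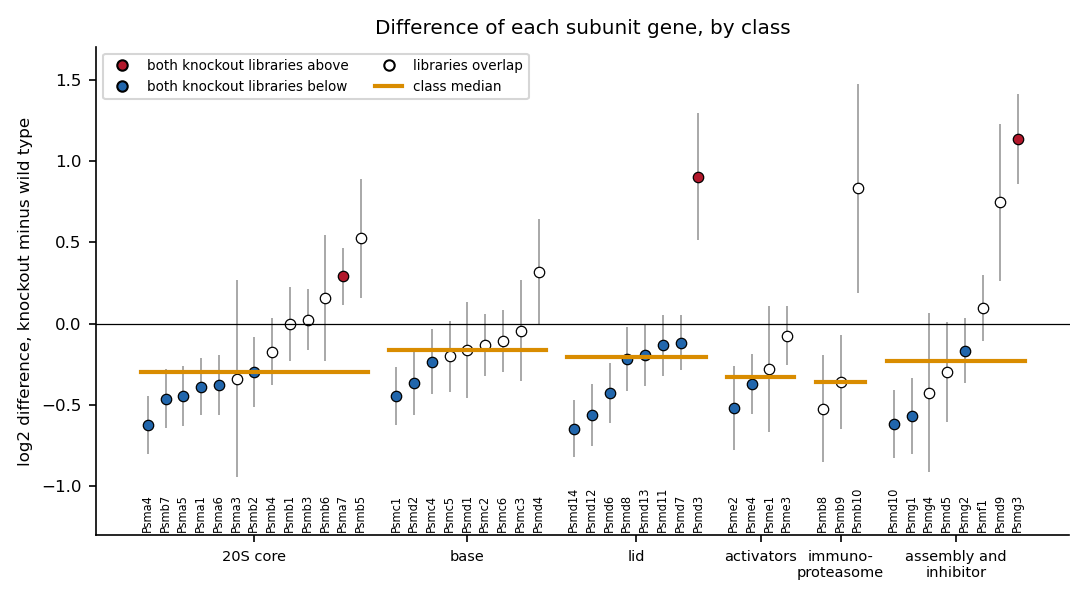
Log2 difference, knockout minus wild type, of each tested member by class, with bars for 1 standard error of the limma fit and orange lines for class medians. Class medians lie between -0.36 and -0.16 on the scaled values, the base median is 0.040 on the deposited scale, and 3 members of the classes lie above wild type in both knockout libraries.

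The base of the regulatory particle had a median log2 difference of -0.16 over its 9 subunits. Both knockout libraries lay below wild type in 3 of them (33.3%), where 23.7% of all genes tested did so. A further 6 overlapped, and 0 lay above, where 22.4% of all genes did. The median was -0.17 over the 6 ATPases that thread substrates into the core. Psmc1, the ATPase called Rpt2, had 44.4 and 49.3 in knockout, against 65.4 and 62.9 in wild type. It lay furthest down in the class, at a log2 difference of -0.45 with a limma adjusted p of 0.465. Psmc4, another of the ATPases, had 33.1 and 40.1 in knockout, against 40.3 and 46.1 in wild type, apart by less than 1 scaled FPKM. With the midpoint of the confidence bounds Psmc4 overlapped, at 33.3 and 40.4 in knockout, against 35.6 and 40.9 in wild type. Psmd2, the scaffold Rpn1 that docks ubiquitin shuttles, had 34.1 and 41.2 in knockout, against 47.2 and 50.1 in wild type. Both knockout libraries were low, at a log2 difference of -0.37.

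The other 6 base members overlapped between the genotypes, and in each of them knockout replicate 2 was above replicate 1. Psmd4, the ubiquitin receptor Rpn10, had 24.9 and 45.6 in knockout, against 28.0 and 25.7 in wild type, and gave the highest log2 difference of the base at 0.32. Psmd1, the scaffold Rpn2, had 26.6 and 45.6 in knockout, against 39.7 and 38.7 in wild type. Psmc3 had 28.0 and 47.8 in knockout, against 33.8 and 42.2 in wild type. In Psmd4, Psmd1 and Psmc3, knockout replicate 1 was the lowest library and replicate 2 the highest. The base median was -0.013 without knockout replicate 1, -0.39 without knockout replicate 2 and 0.040 on the deposited scale, where the median of all genes was 0.19.

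All 8 lid subunits with a Psm symbol lay apart between the genotypes, 7 below and 1 above wild type, and their median log2 difference was -0.21. Among all genes tested, 23.7% lay below and 22.4% above. Knockout replicates 1 and 2 gave nearly the same lid median against the wild type mean, at -0.23 each. On the deposited scale the lid median was -0.00011 beside 0.19 for all genes.

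Psmd14, the Rpn11 deubiquitinase that cuts ubiquitin chains from substrates (chromosome 2, 61711694 to 61800376), had 27.6 and 25.5 in knockout, against 42.8 and 41.5 in wild type. Both knockout libraries were low and the groups did not overlap. The means were 26.6 ± 1.43 in knockout and 42.1 ± 0.936 in wild type (SD, n = 2 each), which gave a log2 difference of -0.65, a standard error of 0.17 and a limma adjusted p of 0.410. The value in knockout replicate 1 averages loci at 15.0 and 34.4 scaled FPKM, and the difference was -0.49 with the highest locus and -0.24 with the sum of loci. Psmd12, the lid subunit Rpn5, had 34.8 and 40.0 in knockout, against 58.9 and 52.4 in wild type. Both knockout libraries were low, at a log2 difference of -0.56 with a standard error of 0.19 and a limma adjusted p of 0.441. Psmd6, known as Rpn7, had 34.2 and 39.7 in knockout, against 48.7 and 50.9 in wild type, a log2 difference of -0.42.

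The other lid subunits lay below by narrow margins. Psmd8, or Rpn12, had 65.2 and 63.7 in knockout, against 67.8 and 83.1 in wild type. Psmd13, or Rpn9, had 22.6 and 21.7 in knockout, against 28.1 and 23.0 in wild type. For both, 1 wild type library was close to the knockout pair and the other was higher. Psmd11, the Rpn6 clamp between lid and core, had 25.7 and 30.4 in knockout, against 30.5 and 31.0 in wild type. Psmd7, the Rpn8 partner of Psmd14, had 37.0 and 36.1 in knockout, against 39.5 and 40.0 in wild type. Log2 differences of these 4 genes ran from -0.22 to -0.12. With the midpoint of the confidence bounds in place of the FPKM, Psmd7 and Psmd11 overlapped between the genotypes. Psmd7 then had 32.8 and 36.4 in knockout, against 35.2 and 35.8 in wild type. On the same measure Psmd11 had 24.4 and 30.7 in knockout, against 29.0 and 29.5 in wild type.

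Psmd3, the lid subunit Rpn3 (chromosome 11, 98682554 to 98695979), was the exception, at 18.4 and 40.5 in knockout, against 13.6 and 14.8 in wild type. Both knockout libraries were above wild type, and replicate 2 was far above replicate 1. The log2 difference was 0.90 with a standard error of 0.39 and a limma adjusted p of 0.479. Psmd3 has the highest GC content of the tested members, 58.3%, and with a correction for GC content its log2 difference was 0.45. Without knockout replicate 1 the difference was 1.45 at a limma adjusted p of 0.0293, in a setting where 515 of 7949 genes passed, and without knockout replicate 2 it was 0.35 at 0.385.

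The activators cap the core in place of the regulatory particle, and their median log2 difference was -0.33 over the 4 tested genes. Of these 2 lay below wild type in both knockout libraries, 0 lay above and 2 overlapped, where 23.7% of all genes lay below and 22.4% above. Psme1, the alpha subunit of the interferon-inducible activator PA28 (chromosome 14, 55578123 to 55581529), had 28.7 and 61.8 in knockout, against 48.0 and 55.3 in wild type. The knockout libraries lay on either side of the wild type pair. Psme2, its beta partner encoded nearby (chromosome 14, 55587441 to 55591113), had 48.8 and 34.5 in knockout, against 52.3 and 67.3 in wild type. Here the groups did not overlap, with a log2 difference of -0.52, a standard error of 0.26 and a limma adjusted p of 0.510. It was -0.28 with knockout replicate 2 left out and -0.34 with wild type replicate 2 left out. Although the 2 gene products share a ring, the ratio of Psme1 to Psme2 was 0.589 and 1.79 in knockout, against 0.917 and 0.822 in wild type, so the knockout libraries disagreed on which was higher.

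Psme4, the activator PA200, had 19.2 and 19.5 in knockout, against 27.5 and 23.2 in wild type. It lay apart at a log2 difference of -0.37 and a limma adjusted p of 0.513. Psme3, the nuclear activator PA28 gamma, had 24.9 and 21.7 in knockout, against 24.3 and 24.7 in wild type, and overlapped. Psme2b, a copy of Psme2 without introns, had loci of its own in knockout replicate 1 at 3.03 scaled FPKM and wild type replicate 1 at 3.10, and was not tested. Reads of so similar a copy can be placed at either gene, which makes both values uncertain.

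The immune catalytic subunits had low levels, with a median of 7.15 and 10.8 scaled FPKM in knockout, against 8.08 and 13.6 in wild type. All 3 overlapped between the genotypes, with a median log2 difference of -0.36 that ran from -0.70 without wild type replicate 1 to -0.017 without wild type replicate 2. Psmb8, the immune counterpart of Psmb5 (chromosome 17, 34197721 to 34201454), had 7.15 and 10.8 in knockout, against 10.004 and 17.0 in wild type. Its log2 difference was -0.52 with a standard error of 0.33 and a limma adjusted p of 0.570, and ran from -0.88 to -0.17 when a library was left out. Psmb9, the counterpart of Psmb6 in the same chromosome region (34181987 to 34187764), had 8.82 and 7.196 in knockout, against 8.08 and 13.6 in wild type. For both genes wild type replicate 2 was the highest library. Psmb10, the counterpart of Psmb7 (chromosome 8, 105935735 to 105938444), had 3.39 and 12.3 in knockout, against 1.94 and 5.26 in wild type. Its second replicates were above the first in both genotypes, and its log2 difference of 0.83 became 0.032 without knockout replicate 2.

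Each immune subunit takes the place of its constitutive counterpart in a particle, and the ratio of the 2 FPKM within a library needs no scaling. Psmb8 stood at 25.5% and 18.9% of Psmb5 in knockout, against 39.3% and 57.2% in wild type. The knockout libraries were both lower and the groups did not overlap, a difference of -1.11 in the log2 ratio, which ran from -1.38 to -0.84 when a library was left out. GC content of these genes was close, 55.8% for Psmb8 and 56.6% for Psmb5. Psmb9 stood at 20.7% and 8.41% of Psmb6 in knockout, against 17.6% and 21.2% in wild type, and overlapped. Its log2 ratio difference of -0.55 ran from -1.20 to 0.098 when a library was left out. Psmb10 stood at 3.53% and 11.8% of Psmb7 in knockout, against 1.44% and 3.70% in wild type, and these also overlapped. Its log2 ratio difference of 1.48 ran from 0.61 to 2.35 when a library was left out. GC content was less alike in this pair, 56.5% for Psmb10 and 48.7% for Psmb7. With a correction for GC content the log2 difference of Psmb10 went from 0.83 to 0.53, and that of Psmb7 from -0.46 to -0.40. The 3 pairs therefore did not share a direction, at -1.11, -0.55 and 1.48 in the log2 ratio, and the exact permutation p of each cannot be under 0.333.

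**Figure D3:**
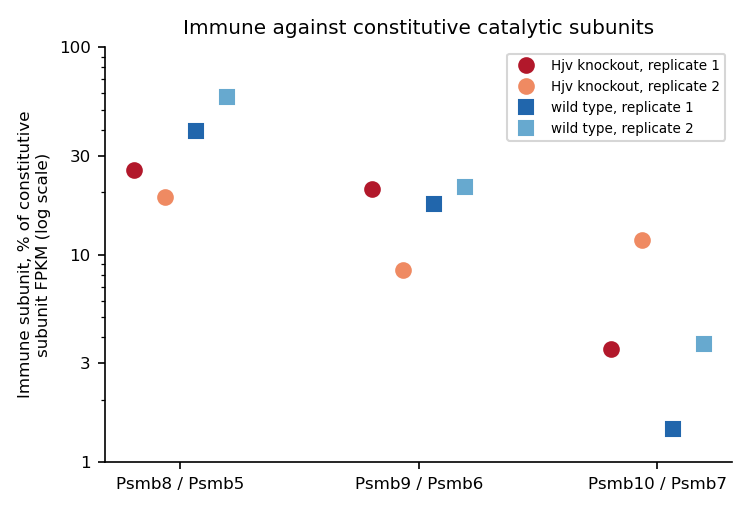
FPKM of each immune catalytic subunit as a percent of its constitutive counterpart (log axis) in the 4 libraries, with circles for Hjv knockout and squares for wild type. The ratio of Psmb8 to Psmb5 is 25.5% and 18.9% in knockout and 39.3% and 57.2% in wild type, while the libraries of the other 2 pairs overlap.

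Immune cells are rich in these subunits, and the markers of such cells stand beside them as follows. The 10 macrophage markers tested of 11 listed summed to 121 and 186 scaled FPKM in knockout, against 155 and 190 in wild type. Of these markers 4 lay below, 0 above and 6 overlapped, where 23.7% of all genes lay below and 22.4% above. Vsig4, a receptor of resident liver macrophages, had 13.1 and 14.4 in knockout, against 22.4 and 24.7 in wild type. Adgre1, the macrophage antigen F4/80, had 3.29 and 5.27 in knockout, against 6.22 and 7.42 in wild type. The 6 overlapping markers lay in both directions. Their log2 differences were 0.32 for Timd4, 0.28 for C1qc, 0.22 for C1qa, -0.035 for C1qb, -0.22 for Cd5l and -0.27 for Csf1r. These 6 were added after their values were seen. Of 14 lymphocyte markers listed, 10 had a locus in at least 1 library, and only Ptprc was tested, at 2.67 and 2.32 in knockout and 2.03 and 2.31 in wild type. The T cell marker Cd4 had loci in every library, at 2.71 and 0.414 in knockout and 0.899 and 1.27 in wild type, and Cd3e in all but knockout replicate 1, at up to 1.32. The part of these cells in the immune subunit values was not tested.

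Genes of antigen presentation and its interferon control lay in both directions, with 2 above, 4 below and 4 overlapping of 10 tested. Among all genes, 22.4% lay above and 23.7% below. B2m, the light chain of class I molecules, had 1649 and 1406 in knockout, against 764 and 1010 in wild type, a log2 difference of 0.79. The class I loading chaperones lay the other way, with Pdia3 at 171 and 190 in knockout, against 292 and 309 in wild type, and Calr at 309 and 364 in knockout, against 484 and 508 in wild type. Tap1, the peptide transporter encoded beside Psmb9 and chosen after its values were seen, overlapped at 3.32 and 4.44 in knockout and 3.28 and 7.16 in wild type. The antigen presentation genes named here had limma adjusted p-values from 0.410 to 0.775.

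Assembly factors and the inhibitor are not part of the finished particle, and the 8 tested genes had low levels, with medians of 7.38 and 8.93 in knockout, against 8.95 and 10.6 in wild type. Their median log2 difference was -0.23, and it turned to 0.0087 without knockout replicate 1 and to 0.051 without wild type replicate 1. Of the 8 genes, 3 (37.5%) lay below, 1 (12.5%) lay above and 4 overlapped. Among all genes tested, 23.7% lay below and 22.4% above. Psmg3, the core assembly chaperone PAC3 (chromosome 5, 139823592 to 139826885), had 5.05 and 8.61 in knockout, against 2.44 and 2.51 in wild type. Both knockout libraries were above a tight wild type pair. The means were 6.83 ± 2.52 in knockout and 2.47 ± 0.0488 in wild type (SD, n = 2 each), which gave a log2 difference of 1.13, a standard error of 0.28 and a limma adjusted p of 0.395. This was the smallest unadjusted p of the members. Its GC content is 56.3%, and with the correction for GC content the difference was 0.85. Without knockout replicate 1 it was 1.47 at a limma adjusted p of 0.0309, and without knockout replicate 2 it was 0.80 at 0.181. With either wild type library left out the limma adjusted p was 0.985 or 0.995.

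The partners of Psmg3 did not share its direction. Psmg1, or PAC1, had 11.8 and 8.27 in knockout, against 14.4 and 16.0 in wild type, a log2 difference of -0.57 with a limma adjusted p of 0.467, or -0.34 without knockout replicate 2. Psmg2, or PAC2, had 9.84 and 9.74 in knockout, against 9.87 and 12.5 in wild type, and lay below with the first replicates almost level. Psmg4, or PAC4, had 4.02 and 9.24 in knockout, against 12.6 and 5.81 in wild type, and overlapped. Of the 4 core chaperones, 1 was therefore above wild type, 2 below and 1 mixed, where 22.4% of all genes lay above and 23.7% below.

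The chaperones of the base were also split. Psmd10, or gankyrin, had 5.83 and 5.46 in knockout, against 8.04 and 10.5 in wild type, with a log2 difference of -0.62, a standard error of 0.21 and a limma adjusted p of 0.441. Its groups did not overlap, but knockout replicate 1 averages loci at 4.41 and 7.99, and the difference was -0.42 with the highest locus and -0.14 with the sum of loci. Psmd9, or p27, whose promoter match is printed above, had 8.94 and 22.1 in knockout, against 6.02 and 10.6 in wild type. Knockout replicate 2 was the high library there, and the log2 difference of Psmd9, 0.75, became 0.14 without that library. Knockout replicate 2 had a single Psmd9 locus of 1308 exonic bases, and wild type replicate 1 a single locus of 2450. The values of knockout replicate 1 and wild type replicate 2 average in a shorter locus, at 3.27 and 2.04 scaled FPKM. Psmd5 had 10.2 and 14.3 in knockout, against 19.2 and 11.8 in wild type, from 1 to 5 separate loci per library. Psmf1, the inhibitor PI31, had 5.01 and 6.43 in knockout, against 5.15 and 5.37 in wild type, and overlapped.

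Psmb11, the catalytic subunit of the thymus proteasome, had no locus in any library. Psmc3ip, a meiotic recombination cofactor named for binding Psmc3, had partial loci at 0.480 scaled FPKM in knockout replicate 2 and 1.07 in wild type replicate 1 only. With Psma2 and Psme2b, these were the 4 members without a test. The pseudogenes Psmb5-ps, Psmb6-ps, Psmb6-ps2 and Psmb7-ps2 had 0 loci in any library.

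GC content of the transcript moved with the differences between libraries. Across the 8008 genes, Spearman's rho with GC content was 0.48 for knockout replicate 2 minus replicate 1, 0.27 for wild type replicate 2 minus replicate 1, and 0.38 for knockout minus wild type. Across the 46 members these were 0.41, 0.38 and 0.38, where points share libraries and genes are no independent replicates. Of the 23 members at or under 50.4% GC, 14 lay below wild type and 1 above, at a median log2 difference of -0.34. Of the 23 members over it, 7 lay below and 3 above, at a median of -0.19. After a correction for GC content over all genes, 20 members lay below, where 23.8% of all genes did, and 4 above, where 22.5% did, and the members' median was -0.25.

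**Figure D4:**
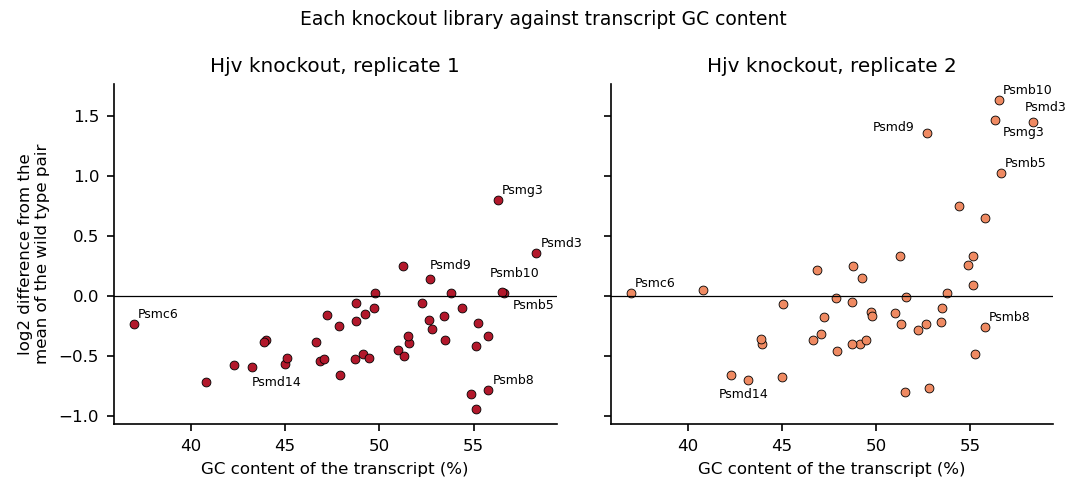
Log2 difference of each tested class member from the mean of the wild type pair against GC content of its transcript in percent, for Hjv knockout replicate 1 on the left and replicate 2 on the right. The GC-rich genes Psmd3, Psmg3, Psmb10 and Psmb5 and the less GC-rich Psmd9 stand highest in replicate 2, and Psmd14 is low in both.

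Genes that work with the proteasome but do not carry its symbols showed a like mix, in lists written from their known functions. Of 15 partners tested (shuttles, deubiquitinases, ligases and chaperones bound to the particle), 2 lay above, 7 below and 6 overlapped, and the list's median was -0.20 on the log2 scale. Of all genes tested, 22.4% lay above and 23.7% below. Rad23b, a shuttle for ubiquitinated substrates, had 62.7 and 60.1 in knockout, against 86.5 and 83.4 in wild type. Usp14, the deubiquitinase on the base, had 13.7 and 18.1 in knockout, against 21.5 and 26.5 in wild type. Both lay apart below wild type, at -0.46 and -0.57. Zfand5, a proteasome activator, lay above with 12.0 and 19.4 in knockout, against 9.82 and 8.48 in wild type. Txnl1, a thioredoxin-like protein of the regulatory particle, had 63.8 and 19.0 in knockout, against 75.7 and 72.1 in wild type, and knockout replicate 2 was the low library. Adrm1, the ubiquitin receptor Rpn13, is a subunit without a Psm symbol and was chosen after its values were seen. It overlapped at 14.4 and 37.0 in knockout and 15.8 and 14.6 in wild type, the same pattern by library as Psmd3 and Psmd4 in that knockout replicate 2 was the high one.

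Of 12 genes tested around the unfoldase p97, which extracts proteins for degradation, 5 lay below, 0 above and 7 overlapped, with a median of -0.15. Vcp, p97 itself, had 52.6 and 63.2 in knockout, against 86.4 and 84.8 in wild type, a log2 difference of -0.56 with a limma adjusted p of 0.441. Sel1l, the scaffold of a ligase for misfolded proteins of the endoplasmic reticulum, had 19.4 and 22.6 in knockout, against 30.9 and 27.6 in wild type. The 7 genes tested of ubiquitin supply and activation had 3 above, 2 below and 2 overlapping, with a median of 0.13. For both this list and the p97 list, the shares over all genes were 22.4% above and 23.7% below. Uba1, the main ubiquitin-activating enzyme, lay below at 24.2 and 35.0 in knockout, against 39.4 and 52.8 in wild type, while Usp5, which takes apart free ubiquitin chains, lay above at 12.1 and 14.3 in knockout, against 8.93 and 10.9 in wild type.

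Regulators and companions of the compensatory response numbered 9 tested genes, with 2 above, 3 below and 4 overlapping and a median of -0.081. The shares over all genes were 22.4% above and 23.7% below. Nfe2l1, its main transcription factor, was chosen after its values were seen and overlapped at 18.2 and 27.6 in knockout and 19.4 and 14.4 in wild type. Ngly1, the enzyme that deglycosylates Nfe2l1, had 15.9 and 14.5 in knockout, against 21.2 and 19.3 in wild type, and Nfe2l2, the factor for oxidative stress, had 24.9 and 20.6 in knockout, against 32.3 and 28.2 in wild type. Sqstm1, the autophagy receptor for ubiquitinated cargo, lay above at 103 and 165 in knockout, against 91.5 and 95.5 in wild type. Limma adjusted p-values of these 4 genes ran from 0.488 to 0.597.

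**Figure D5:**
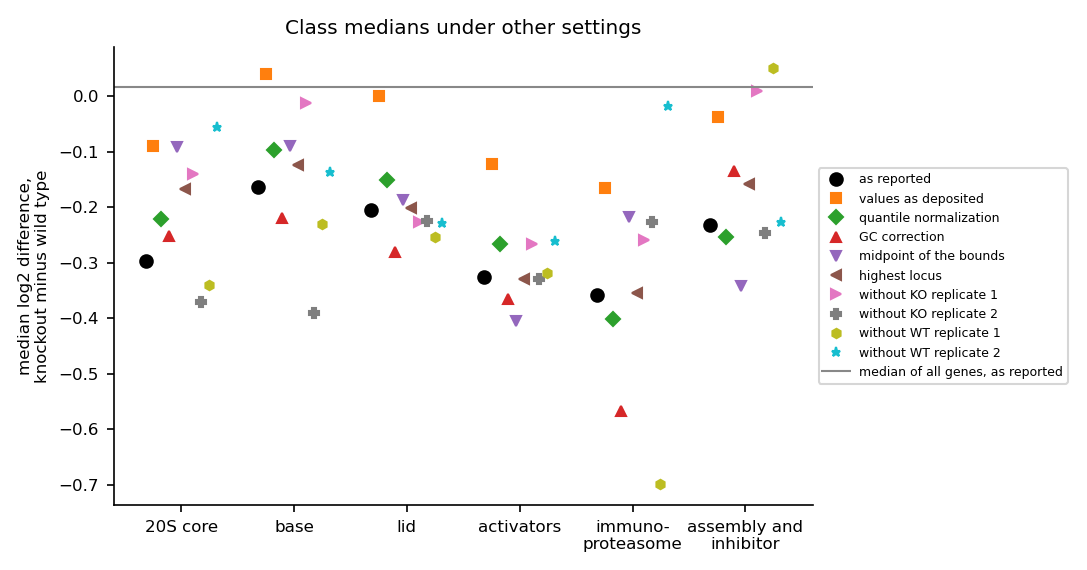
Median log2 difference, knockout minus wild type, of each class under the reported processing (black circles) and 9 other settings, with the grey line at 0.016 for all genes tested. The base turns to 0.040 on the deposited scale, the assembly factors turn to 0.0087 and 0.051 without knockout replicate 1 and wild type replicate 1, and the activators stay between -0.40 and -0.12.

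The counting precision of some members was low. The immune subunit Psmb10 had bounds 20.8% and 8.75% wide on either side in knockout, against 19.2% and 22.5% in wild type. For Psmg3 they were 14.2% and 7.88% in knockout, against 18.7% and 26.6% in wild type. Psmg4 had 36.2% in knockout replicate 1 and 36.4% in wild type replicate 2, and Psma8 reached 63.6% in wild type replicate 2.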

How the data were processed

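Liver RNA was sequenced on an Illumina HiSeq instrument from TruSeq libraries, per the labels' protocols, and the submitters' processing notes name FastQC, TopHat, Cufflinks and the build mm9, with versions not given in the sources used here. The deposited values are FPKM with lower and upper confidence bounds, which the authors made per library for assembled loci without gene names. Coordinates fit GRCm38, so loci were assigned to GENCODE M21 genes. A locus needed at least 50% of its length inside a gene and was left out when another gene shared over 25% as many bases, when it lay within 1 exon and was under 50% exonic, or when its FPKM exceeded 3 times the midpoint of its bounds. Exceptions, made after seeing which members lacked a value, gave a locus to the gene whose transcript it matched within 200 bases at both ends (Psmb7) and disregarded genes nested between exons (Psmd1). Each gene took the average of its loci, weighted by the exonic bases of each, where these spanned at least 50% of a coding transcript.

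Values were divided by median-of-ratios factors of 1.20 and 0.951 for knockout and 0.934 and 0.915 for wild type. The filter kept genes reaching 1 FPKM in 2 or more libraries. The two-sided test of knockout against wild type used limma 3.58.1 (R 4.3.3) and its mean-variance trend, with 1 added to the scaled FPKM before the log2, which understates changes of low genes. The adjusted p is Benjamini-Hochberg over 8008 genes. The members, lists and tests were chosen with earlier results of these data known. Named members are the immune subunits and activators, those without overlap between genotypes and the extremes of each class; list genes are up to 4 with the smallest unadjusted p, and others are marked as chosen after their values were seen. Values of some list genes are not reported here, although the list counts include them. Alternatives covered pseudocount, filter, scaling, trend, replicate block, GC correction, locus summary, span and each library left out.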

Additional observations from a re-analysis of the deposited data

How the results depend on the processing

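The log2 differences of the 19 members tried under the 20 other settings kept their direction wherever they had a value. Members outside these 19 could turn. On the deposited scale Psmd7 went from -0.12 to 0.089, Psmd11 from -0.13 to 0.070, Psmd13 from -0.19 to 0.0083 and Psmg2 from -0.17 to 0.027. Without knockout replicate 1, Psme1 went from -0.28 to 0.26 and Psmd1 from -0.16 to 0.21. Without knockout replicate 2, Psmb6 went from 0.16 to -0.34. Leaving out knockout replicate 1 brought Psmg3 (1.47) and Psmd3 (1.45) past the threshold together with 515 of 7949 genes in all, and the lone library of a genotype is then assumed to vary like the others. The deposited scale gave 1 gene past the adjusted threshold, 8 members below and 11 above, and medians of -0.0030 for all members, -0.090 for the core, 0.040 for the base, -0.00011 for the lid, -0.12 for the activators and -0.038 for the assembly factors, by its construction, since all genes moved to 0.19. The sum of loci gave 10 members below, where 18.3% of all genes lay below, and -0.019 for the assembly factors. The midpoint of the bounds, added after seeing the data, gave -0.091 for the core, -0.19 for the lid and -0.40 for the activators. It put 16 members below, where 22.8% of all genes lay below, and 4 above, where 22.7% lay above. For the longest locus of each tested member, the FPKM was a median of 1.10 and 0.999 times the midpoint in knockout. In wild type this was 1.12 and 1.13. Quantile normalization gave -0.15 for the lid and -0.27 for the activators, a span of 80% gave -0.16 for the lid, and the GC correction gave -0.28 for the lid. The causes were not tested.

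With a library left out, genes past the threshold ran from 1 to 515, members from 0 to 2, members below from 24 to 33 (all genes 32.9% to 41.5%) and members above from 4 to 13 (all genes 32.8% to 39.8%). Medians ran from -0.37 to -0.056 for the core, -0.39 to -0.013 for the base, -0.25 to -0.23 for the lid, -0.33 to -0.26 for the activators, -0.25 to 0.051 for the assembly factors (0.0087 without knockout replicate 1) and -1.20 to 0.098 for the log2 ratio of Psmb9 to Psmb6.

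The labels do not say whether same-numbered libraries share an animal, litter or day. Deviations of same-numbered libraries from their genotype means correlated at r = 0.085 over 8008 genes. With 2 libraries per genotype this value cannot settle the question. The fit with the replicate block gave 0 genes past the threshold (in this balanced layout a block cannot move the differences themselves), and the block with the GC correction gave -0.28 for the lid.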
